A study of Mus musculus with 8 samples.

Results

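The 39 genes described here mark macrophages and monocytes of mouse tissue, and they were taken by name from a list. All 39 were found among the 27179 genes of the count table. They fall into 8 pan-macrophage genes, 4 monocyte genes, 12 genes of resident-like macrophages, 7 genes of alternatively activated macrophages, Nos2 as the 1 gene of classical activation, 5 lipid-associated genes and 2 pattern recognition lectins. The grouping rests on general knowledge of these genes.

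Whole primary tumours were profiled by RNA sequencing, 4 of them grown from vector control (4T1.13-VC) cells and 4 from knockdown (4T1.13-miR-21-KD) cells. The 4T1.13 line is a mammary carcinoma line of BALB/c origin that metastasises. By the labels 100000 of its cells were placed in the mammary fat pad of young female BALB/c mice with an intact immune system. The paper's legends for 4T1.13 tumours in BALB/c mice give a larger number of cells. By the labels the tumours were taken on day 14, and by the text of the paper on an earlier day. Both lines carried the pEZX-AM03 lentiviral vector with mCherry and hygromycin B resistance. In miR-21-KD cells its H1 promoter drove a transcript to sequester the mature miRNA, and in VC cells the transcript was a scrambled one. Each line was a pool of selected clones. The vector was in the carcinoma cells alone, so macrophages and other host cells kept their own miR-21. Tumour numbers run from 1 to 4 in each group.

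Macrophages arise from embryonic precursors that settle in tissues or from blood monocytes that enter them, and both depend on signals through the receptor encoded by Csf1r. The cytokines IL-4 and IL-13, acting through STAT6, drive alternative activation, in which lectin receptors rise, whereas interferon gamma and bacterial products drive classical activation with inducible nitric oxide synthase. In tumours the same cell can carry genes of several of these states, and lipid-associated macrophages that take up cell debris carry Trem2, Apoe, Gpnmb and Spp1.

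The 2 mature strands of mouse miR-21 are shown because mature miR-21 was the target of the vector in the carcinoma cells, and the sources used here do not say which strand the RNA bound. The 5p strand lies on the minus strand at chr11:86584120-86584141 and the 3p strand at chr11:86584082-86584103 (RefSeq, GRCm38.p6), and capitals mark the seed, bases 2 to 8.
mmu-miR-21a-5p: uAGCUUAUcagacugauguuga
mmu-miR-21a-3p: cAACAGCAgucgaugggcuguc
The gene of miR-21 had 0 counts in all 8 libraries, which says nothing about the knockdown, since a sequestered mature miRNA is not read by a gene count.

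RefSeq promoter windows (250 bases before to 50 after the start, GRCm38.p6) were held for 29 of the 39 genes, with 40 windows in all. The windows were searched on both strands for the STAT6 palindrome (TTC and GAA with 4 bases of any kind between them), for GAGGAA, a core bound by the macrophage factor PU.1, and for CATGTG, a core bound by MITF and TFEC. The palindrome was held by 7 of the 29 genes (8 of 40 windows, against 6.95% of all 32851 windows), namely Cd5l, Clec7a, Lgals3, Ms4a7, Plac8, Retnla and Selenop. GAGGAA was held by 19 genes (24 windows, against 28.3% of all) and CATGTG by 8 genes (8 windows, against 14.2% of all). Windows of the same gene can overlap, as in Clec7a, Ly6c2 and Selenop, so a site can count in more than 1 window. A match is a description of letters and not a bound site. The bases upstream of 4 genes that rose are shown as examples, the first 3 with matches in capitals and Chil3 with none. They lie at chr16:48842359-48842608 (plus strand) for Retnla, chr6:129472780-129473029 (minus strand) for Clec7a, chr2:14229164-14229413 (plus strand) for Mrc1 and chr3:106167565-106167814 (minus strand) for Chil3. In Mrc1 a match of CATGTG on the minus strand runs directly into a match of GAGGAA, so both appear as 1 run of capitals.
Retnla: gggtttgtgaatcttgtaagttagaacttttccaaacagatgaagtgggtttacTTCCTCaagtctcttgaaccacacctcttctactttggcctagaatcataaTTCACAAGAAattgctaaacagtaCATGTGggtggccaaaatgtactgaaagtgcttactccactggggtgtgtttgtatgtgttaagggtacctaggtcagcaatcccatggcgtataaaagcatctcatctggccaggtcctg
Clec7a: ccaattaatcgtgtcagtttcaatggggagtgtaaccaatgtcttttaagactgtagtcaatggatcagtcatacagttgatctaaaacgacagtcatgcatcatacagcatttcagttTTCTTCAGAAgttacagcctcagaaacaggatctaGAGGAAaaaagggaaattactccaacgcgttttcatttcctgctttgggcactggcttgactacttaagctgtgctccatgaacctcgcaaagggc
Mrc1: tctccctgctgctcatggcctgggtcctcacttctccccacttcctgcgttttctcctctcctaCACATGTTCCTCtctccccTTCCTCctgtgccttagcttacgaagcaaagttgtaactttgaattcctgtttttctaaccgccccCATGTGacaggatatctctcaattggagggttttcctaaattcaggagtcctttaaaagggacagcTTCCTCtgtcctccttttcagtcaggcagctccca
Chil3: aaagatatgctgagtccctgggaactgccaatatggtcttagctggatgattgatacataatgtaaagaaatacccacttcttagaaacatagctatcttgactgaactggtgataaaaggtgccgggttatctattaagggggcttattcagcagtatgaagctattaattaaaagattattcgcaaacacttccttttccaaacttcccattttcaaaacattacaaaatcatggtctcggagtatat
Chil3 and Gpnmb, the members with the largest differences in either direction, held none of the 3 motifs in their windows. Among other genes that rose more than Mrc1, Cd163 and Cd209f held none either, while Selenop, Ms4a7 and Trem2 held matches. Nothing follows from these matches and misses about the factors.

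Libraries held 12134849 to 13592695 counts, and a floor of 3 counts corresponded to 0.221 to 0.245 CPM (reads of a gene relative to the tested reads of its library, scaled by trimmed mean of M values). Tumours of a group differed by more than sampling noise. Over all 14382 genes tested with edgeR's quasi-likelihood test the median log2 fold change was -0.01. At an adjusted p (Benjamini-Hochberg) under 0.05, 19.6% of tested genes were higher in miR-21-KD tumours, and 19.5% were lower. Every miR-21-KD tumour lay above every VC tumour for 16.3% of tested genes, and below for 18.9%.

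Macrophage genes were mostly higher in miR-21-KD tumours. Of the 39 genes, 36 passed the filter on low counts, 25 rose, 1 fell (Gpnmb) and 10 did not pass the test. The median log2 fold change of the 36 was 1.02, and 18 of the 25 rises were larger than 2-fold. The smallest of these 18, that of Nos2, held rank 1740 from the highest log2 fold change of the 14145 tested genes with a symbol. The groups did not overlap for 21 genes with miR-21-KD above and for 1 gene with miR-21-KD below. Summed over all 39 genes the level was 15230, 14460, 11460 and 15970 CPM in VC tumours 1 to 4, and 32750, 19010, 32150 and 31370 CPM in miR-21-KD tumours 1 to 4. The lowest miR-21-KD tumour, number 2, lay above the highest VC tumour in this sum. It was also the lowest of its group for 29 of the 36 tested genes, while VC tumour 4 was the highest of its group for 23. In bulk tissue, more cells of a type and more RNA per cell cannot be told apart.

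**Figure D1:**
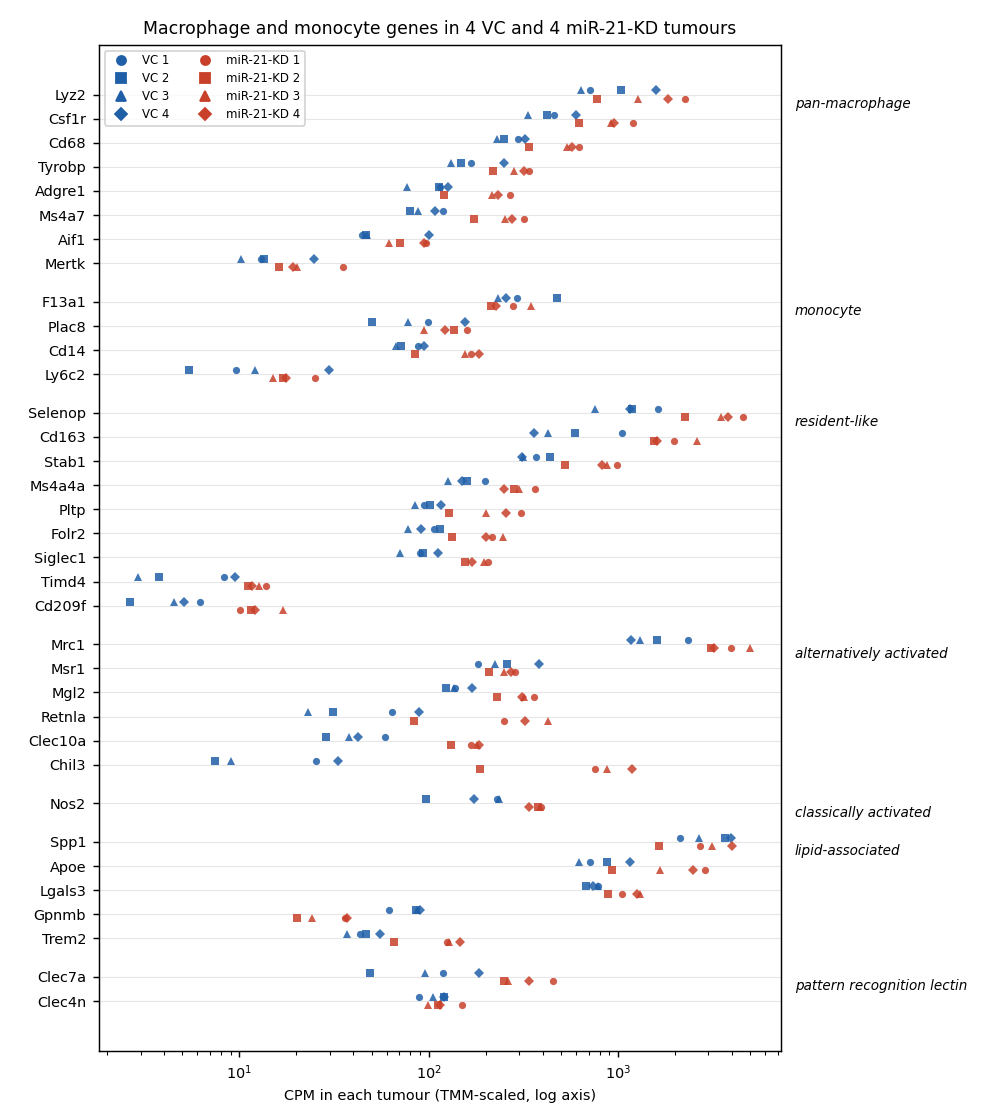
CPM (log axis) of the tested genes reported here in each tumour, in rows grouped by role, with VC tumours in blue above and miR-21-KD tumours in red below each line, and 1 marker shape per tumour number. The red markers of Chil3 start at 187 CPM and the blue ones end at 33.3 CPM, whereas for Gpnmb the red markers lie below all blue ones.

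The general macrophage genes rose in 5 of 8 cases, with a median log2 fold change of 0.83. Ms4a7, a membrane protein of mature macrophages, read 119, 79.9, 88.3 and 108 CPM in VC tumours 1 to 4 and 318, 174, 253 and 275 CPM in miR-21-KD tumours 1 to 4. Its groups stood apart, and it rose 2.58-fold (log2 1.37, SE 0.20, adjusted p = 0.00571). Csf1r, the receptor for the growth factor CSF1, read 458, 424, 333 and 600.1 CPM against 1201, 624.5, 920.4 and 958 CPM. These groups were separate by a narrow margin, between VC tumour 4 and miR-21-KD tumour 2, with a rise of 2.04-fold (log2 1.03, SE 0.23, adjusted p = 0.0127).

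Adgre1, which encodes the macrophage surface protein F4/80, read 115, 114, 77.2 and 127 CPM in VC tumours and 268, 120.2, 216 and 231 CPM in miR-21-KD tumours. Tumour 2 of the miR-21-KD group lay inside the VC range, and the rise was 1.93-fold (log2 0.95, SE 0.25, adjusted p = 0.0193). Cd68, a lysosomal glycoprotein of phagocytes, read 297, 250, 230.4 and 322 CPM against 622, 337, 541 and 571 CPM. Its groups did not overlap and it rose 1.88-fold (log2 0.91, SE 0.20, adjusted p = 0.0114). Tyrobp, the adaptor that carries the signal of TREM2 and other receptors, rose by 0.74 on the log2 scale (SE 0.22, adjusted p = 0.0285) with overlap between the groups.

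Lyz2, the lysozyme of macrophages and neutrophils, was the most abundant of the 3 pan-macrophage genes that did not pass. It read 715, 1036, 635 and 1590 CPM in VC tumours and 2250, 776, 1278 and 1836 CPM in miR-21-KD tumours, so that both groups spread widely across each other (log2 0.63, SE 0.38, adjusted p = 0.212). Mertk, a receptor for dying cells, ranged from 10.2 to 24.8 CPM in VC tumours and from 16.3 to 35.2 CPM in miR-21-KD tumours (adjusted p = 0.190). Aif1, which encodes the actin-binding protein IBA1, ranged from 44.4 to 100.3 CPM and from 61.5 to 96.6 CPM (adjusted p = 0.245). In both genes VC tumour 4 was the highest of its group, and without it both passed, at log2 0.89 (adjusted p = 0.0367) for Mertk and 0.80 (adjusted p = 0.0133) for Aif1. The rises of Adgre1 and Tyrobp in turn lost significance when single tumours were left out, Adgre1 without VC tumour 3 (adjusted p = 0.0539) or miR-21-KD tumour 4 (adjusted p = 0.0532), and Tyrobp without any 1 of VC tumours 1, 2 and 3 or miR-21-KD tumours 1, 3 and 4 (adjusted p = 0.0554 to 0.0786).

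Among the 4 monocyte genes only Cd14 passed, and the median log2 fold change of the 4 was 0.41. Cd14, a co-receptor for bacterial lipopolysaccharide, read 87.7, 71.6, 66.8 and 94.4 CPM in VC tumours and 167, 84.6, 156 and 184 CPM in miR-21-KD tumours. The miR-21-KD tumour 2 fell within the VC range, and the gene rose 1.84-fold (log2 0.88, SE 0.23, adjusted p = 0.0195). F13a1, the coagulation factor XIII A chain made by monocytes and some macrophages, was the most abundant of those that did not pass. It read 294, 474, 232 and 256 CPM against 279.8, 212, 347 and 228 CPM, with overlapping ranges (log2 -0.24, SE 0.25, adjusted p = 0.469).

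Ly6c2, which marks inflammatory blood monocytes, read 9.59, 5.42, 12.1 and 29.6 CPM in VC tumours and 25.0, 17.0, 15.1 and 17.7 CPM in miR-21-KD tumours (log2 0.40, SE 0.46, adjusted p = 0.505). VC tumour 4 was the highest of all 8 tumours, and the other VC tumours were below every miR-21-KD tumour. Plac8, a gene of monocytes and other leukocytes, ranged from 50.02 to 156 CPM in VC tumours and from 94.5 to 159 CPM in miR-21-KD tumours (log2 0.42, SE 0.32, adjusted p = 0.311). Without VC tumour 4 both genes passed, Ly6c2 at log2 1.04 (adjusted p = 0.0273) and Plac8 at 0.75 (adjusted p = 0.0477), whereas Cd14 did not pass without VC tumour 2 or 3 or miR-21-KD tumour 4 (adjusted p = 0.0556 to 0.0592). Ly6c2 can share reads with its close copy Ly6c1, which averaged 61.9 CPM in VC tumours and did not pass (log2 0.38, adjusted p = 0.260). VC tumour 4 also stood out in B cell markers, whose sum was 145 CPM there and 1.76 to 5.09 CPM in the other VC tumours. The miR-21-KD tumour 4 was likewise the highest of its group in this sum, at 63.7 CPM against 8.68 to 13.2 CPM. The part of these cells in the values of either tumour was not tested.

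Of the resident-like macrophage genes, 8 of the 9 tested rose and all 9 had every miR-21-KD tumour above every VC tumour, with a median log2 fold change of 1.16. Cd163, the receptor that clears haemoglobin bound to haptoglobin, read 1048, 590.1, 429 and 362 CPM in VC tumours and 1973, 1544, 2607 and 1614 CPM in miR-21-KD tumours. VC tumour 1 was nearest to the miR-21-KD tumours, and the rise was 3.19-fold (log2 1.67, SE 0.34, adjusted p = 0.00994). Selenop, which encodes the selenium carrier selenoprotein P, read 1622, 1192, 760.0 and 1151 CPM against 4590, 2257, 3504 and 3796 CPM. It rose 2.99-fold (log2 1.58, SE 0.28, adjusted p = 0.00694), with no overlap.

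Cd209f, a C-type lectin of the DC-SIGN family, was present at a low level of 6.19, 2.63, 4.49 and 5.07 CPM in VC tumours and 10.0, 11.6, 17.0 and 12.1 CPM in miR-21-KD tumours. It rose 2.75-fold (log2 1.46, SE 0.28, adjusted p = 0.0080), and reads may be shared with other genes of its family. One of them, Cd209a, rose from a mean of 9.97 to 41.0 CPM (log2 2.03, SE 0.47, adjusted p = 0.0135). Pltp, the phospholipid transfer protein, read 94.1, 101, 84.6 and 117 CPM against 309, 129, 200.1 and 257 CPM, a rise of 2.26-fold (log2 1.17, SE 0.25, adjusted p = 0.0105). The miR-21-KD tumour 2 was again the nearest to the VC tumours in Pltp, but not in Cd209f, where tumour 1 was.

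Of the other resident-like genes, Stab1, a scavenger receptor, rose by 1.16 on the log2 scale (SE 0.21, adjusted p = 0.00701), and the folate receptor gene Folr2 rose by 1.03 (SE 0.20, adjusted p = 0.00849). Siglec1, the sialic acid receptor of resident macrophages, rose by 0.99 (SE 0.15, adjusted p = 0.00571), and Ms4a4a, a membrane protein of macrophages, by 0.91 (SE 0.16, adjusted p = 0.00699). Timd4, a receptor for phosphatidylserine on dying cells, read 8.26, 3.75, 2.92 and 9.48 CPM in VC tumours and 13.7, 11.2, 12.7 and 11.6 CPM in miR-21-KD tumours. Its groups did not overlap, yet it missed the threshold (log2 1.01, SE 0.36, adjusted p = 0.0518). With the replicate number as a block it passed, at 1.14 (adjusted p = 0.0325).

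The remaining 3 resident-like genes were barely detected and were not tested. Vsig4, a complement receptor, had 4, 13, 1 and 20 counts in VC tumours and 2, 1, 5 and 0 counts in miR-21-KD tumours. Cd5l, a secreted protein of tissue macrophages, had 4, 4, 0 and 48 counts against 5, 6, 12 and 3 counts. Marco, a scavenger receptor, had 0, 0, 1 and 10 counts against 1, 1, 0 and 5 counts. In each of the 3 genes VC tumour 4 held the most counts, and no tumour had more than 48 counts.

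Genes of alternative activation held the 3 largest rises among the members (Chil3, Retnla and Clec10a): 6 of the 7 rose, with a median log2 fold change of 1.52. Chil3, the chitinase-like protein Ym1 that macrophages make in response to IL-4, lies at chr3:106147554-106167564 and read 25.5, 7.42, 8.98 and 33.3 CPM in VC tumours and 752, 187, 871 and 1191 CPM in miR-21-KD tumours. Every miR-21-KD tumour lay far above every VC tumour, and the rise was 39.9-fold (log2 5.32, SE 0.73, adjusted p = 0.00524). Chil3 held rank 10 from the highest log2 fold change of the 14145 tested genes with a symbol. Its close copy Chil4, with which reads may be shared, averaged 0.91 CPM in VC tumours and reached 9.41 CPM at most in miR-21-KD tumours (log2 2.80, adjusted p = 0.0660). Neutrophils can also carry Chil3. Of the 7 neutrophil markers tested 0 passed with edgeR (2 at an unadjusted p under 0.05), 2 passed with DESeq2 and with the replicate block, 1 with limma-voom and 4 with its quality weights. Their sums were 294 to 803 CPM in VC tumours and 386 to 689 CPM in miR-21-KD tumours, and the part of neutrophils in Chil3 was not tested.

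Retnla, the resistin-like protein RELM-alpha, lies at chr16:48842609-48844461 and read 64.0, 31.1, 22.9 and 88.4 CPM in VC tumours and 249, 84.1, 428 and 321 CPM in miR-21-KD tumours. It rose 5.24-fold (log2 2.39, SE 0.56, adjusted p = 0.0140), with the miR-21-KD tumour 2 just under VC tumour 4. Adipose tissue and eosinophils can also carry Retnla. All 5 adipocyte markers rose, with sums of 30.3 to 158 CPM in VC tumours and 266 to 910 CPM in miR-21-KD tumours, and 2 of the 5 eosinophil and basophil markers tested rose (Siglecf and Ccr3), with sums of 61.4 to 114 CPM and 124 to 141 CPM. Among the miR-21-KD tumours, tumour 2 was the lowest in both the adipocyte sum and Retnla, while the highest was tumour 4 in the sum and tumour 3 in Retnla. The part of these cells in Retnla was not tested.

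Clec10a, a C-type lectin for galactose and its derivatives, read 59.0, 28.8, 38.1 and 42.4 CPM in VC tumours and 168, 132, 179 and 184 CPM in miR-21-KD tumours. The groups were far apart, with a rise of 3.94-fold (log2 1.98, SE 0.21, adjusted p = 0.00501). Mgl2, its neighbour on chromosome 11 and a close copy that may share reads with it, rose by 1.10 on the log2 scale (SE 0.15, adjusted p = 0.00525). Both lectins are also known from dendritic cells, of whose 8 markers 4 rose, with sums of 61.2 to 190 CPM in VC tumours and 247 to 417 CPM in miR-21-KD tumours. The part of dendritic cells in these lectins was not tested.

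Mrc1, the mannose receptor CD206, read 2343, 1599, 1307 and 1178 CPM in VC tumours and 3944, 3110, 4958 and 3212 CPM in miR-21-KD tumours. It rose 2.37-fold without overlap (log2 1.24, SE 0.25, adjusted p = 0.00928), from a mean of 1607 ± 521 CPM (SD, n = 4) to 3806 ± 853 CPM. Msr1, the class A scavenger receptor, was the exception of the group. It read 182, 259, 223 and 380.5 CPM in VC tumours against 286, 208, 249 and 272 CPM in miR-21-KD tumours, with the miR-21-KD values inside the VC range (log2 -0.04, SE 0.22, adjusted p = 0.893). The sign of its small difference turned under several settings.

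Nos2, the inducible nitric oxide synthase of classical activation, also rose. It read 230, 96.4, 236 and 174 CPM in VC tumours and 392, 376, 389 and 337 CPM in miR-21-KD tumours. The VC values were spread and the miR-21-KD values close together, without overlap (fold 2.03, log2 1.02, SE 0.25, adjusted p = 0.0159). Per kilobase of exon, the mean level of Nos2 was 41.7 CPM in VC tumours and 84.7 CPM in miR-21-KD tumours.

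**Figure D2:**
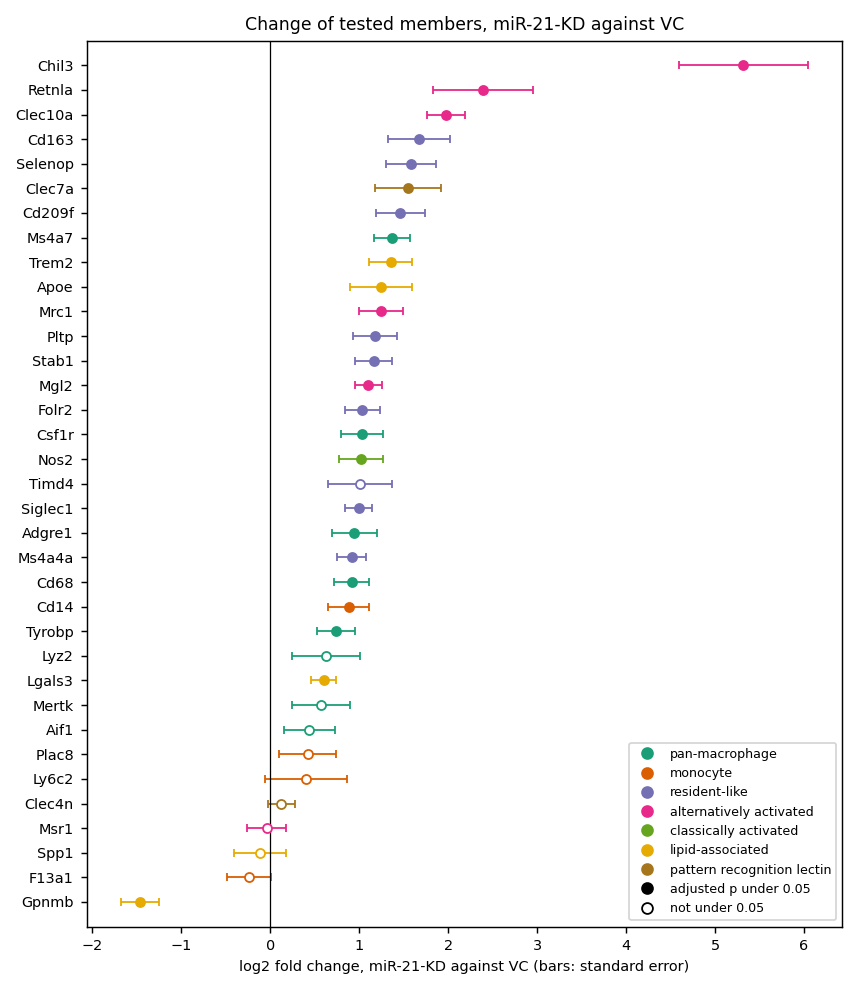
Log2 fold change of miR-21-KD against VC tumours for the tested genes reported here (4 tumours a group, edgeR's quasi-likelihood fit), with bars of 1 standard error, colours for the roles, and filled markers where the adjusted p was under 0.05. Chil3 at 5.32 lies far to the right, Gpnmb at -1.46 is the 1 filled marker on the left, and 3 of the 4 monocyte genes have open markers.

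The lipid-associated genes did not move as a group, with 3 of 5 higher, 1 lower and 1 unresolved. Trem2, the lipid receptor that signals through the Tyrobp product, read 43.2, 46.8, 37.2 and 55.4 CPM in VC tumours and 125, 65.9, 129 and 147 CPM in miR-21-KD tumours. It rose 2.55-fold without overlap (log2 1.35, SE 0.24, adjusted p = 0.00699). Gpnmb, a lysosomal glycoprotein of lipid-laden macrophages that carcinoma and melanoma cells can also make, lies at chr6:49036518-49058182 and read 62.0, 86.1, 86.3 and 89.7 CPM against 36.05, 20.1, 24.2 and 37.1 CPM. It fell 2.76-fold (log2 -1.46, SE 0.22, adjusted p = 0.00571), and every miR-21-KD tumour lay below every VC tumour, so that Gpnmb and Trem2 ran in opposite directions.

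Apoe, the lipid carrier apolipoprotein E, read 708, 875, 623 and 1156 CPM in VC tumours and 2878, 926, 1659 and 2507 CPM in miR-21-KD tumours. The miR-21-KD tumour 2 lay within the VC range, and the rise of 2.37-fold (log2 1.25, SE 0.35, adjusted p = 0.0243) lost significance without VC tumour 1, 2 or 3 or miR-21-KD tumour 1 or 4 (adjusted p = 0.0537 to 0.0706). Lgals3, galectin-3, read 785, 674, 786 and 734 CPM against 1055, 889, 1308 and 1258 CPM, a small rise of 1.51-fold without overlap (log2 0.60, SE 0.14, adjusted p = 0.0140). Spp1, osteopontin, read 2132, 3685, 2687 and 3960 CPM against 2715, 1645, 3127 and 4016 CPM with overlapping ranges (log2 -0.12, SE 0.29, adjusted p = 0.772). Per kilobase of exon Spp1 had the highest mean level of the 39 genes in VC tumours (1891 CPM), and its mean in miR-21-KD tumours was 1745 CPM.

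Carcinoma cells can make Gpnmb, Lgals3 and Spp1, and fibroblasts can make Selenop, Apoe and Pltp. The summed epithelial and carcinoma markers ranged from 1292 to 2238 CPM in VC tumours and from 751 to 1580 CPM in miR-21-KD tumours. Of the 6, 4 rose (Krt14, Epcam and Cdh1 had the smallest adjusted p) and Krt18 fell by 1.15 on the log2 scale (adjusted p = 0.0374). Fibroblast markers rose in 6 of 8 cases, Col1a1 by 1.48 (adjusted p = 0.0134), with sums of 3072 to 8060 CPM in VC tumours and 10480 to 23410 CPM in miR-21-KD tumours. The endothelial list, which bears on Stab1, had 1 of 6 higher (Tek), with sums of 366 to 660.2 CPM and 526 to 749 CPM. The part of these cells in the 7 genes was not tested.

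Of the pair of pattern recognition lectins, Clec7a rose and Clec4n did not pass, and the difference between them was not tested. Clec7a, the beta-glucan receptor dectin-1, read 119, 49.0, 95.8 and 184 CPM in VC tumours and 454, 251, 261 and 338 CPM in miR-21-KD tumours. It rose 2.92-fold without overlap (log2 1.54, SE 0.37, adjusted p = 0.0151). Clec4n, dectin-2, read 88.8, 121, 105 and 121 CPM against 149, 112, 99.4 and 115 CPM, and its groups lay across each other (log2 0.13, SE 0.15, adjusted p = 0.520).

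Levels relative to Csf1r were compared to ask whether a gene moved by another amount than this receptor. For 8 genes the log2 CPM of Csf1r was subtracted from that of the gene in each tumour, and an exact permutation test (two-sided) over the 8 tumours was run, in which p cannot go below 0.0286. None of the 8 passed, adjusted or unadjusted. Retnla relative to Csf1r read -2.84, -3.76, -3.85 and -2.76 in VC tumours and -2.27, -2.89, -1.11 and -1.58 in miR-21-KD tumours, a difference of 1.34 (exact permutation p = 0.0857, 0.343 after adjustment over the 8). Retnla was higher in the miR-21-KD tumour in 4 of 4 pairs of the same number, by 0.57, 0.87, 2.75 and 1.18, and exact sign flips within pairs, a permutation test added after seeing the data, gave p = 0.125, the smallest that 4 pairs allow. By the same count Mrc1, Cd163 and Trem2 were higher in 3 of 4 pairs, Folr2 and Nos2 in 2 and Ly6c2 in 1. Cd163 read 1.20, 0.48, 0.36 and -0.73 against 0.72, 1.30, 1.502 and 0.75, a difference of 0.74 (exact permutation p = 0.143, adjusted 0.343), with VC tumour 4 far below the rest.

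Trem2 was higher relative to Csf1r by 0.28 (exact permutation p = 0.171, adjusted 0.343) and Mrc1 by 0.25 (exact permutation p = 0.6, adjusted 0.8), each with overlap between the groups. Nos2 and Folr2 differed by 0.08 and -0.01 (exact permutation p = 0.8286 and 0.971, adjusted 0.947 and 0.971). Ly6c2 was lower relative to Csf1r by 0.38 on the log2 scale in the group means, -5.23 ± 0.85 (SD, n = 4) in VC tumours and -5.61 ± 0.31 in miR-21-KD tumours (exact permutation p = 0.429, adjusted 0.686). With 4 tumours a group, misses of this test do not show that the ratios were alike.

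**Figure D3:**
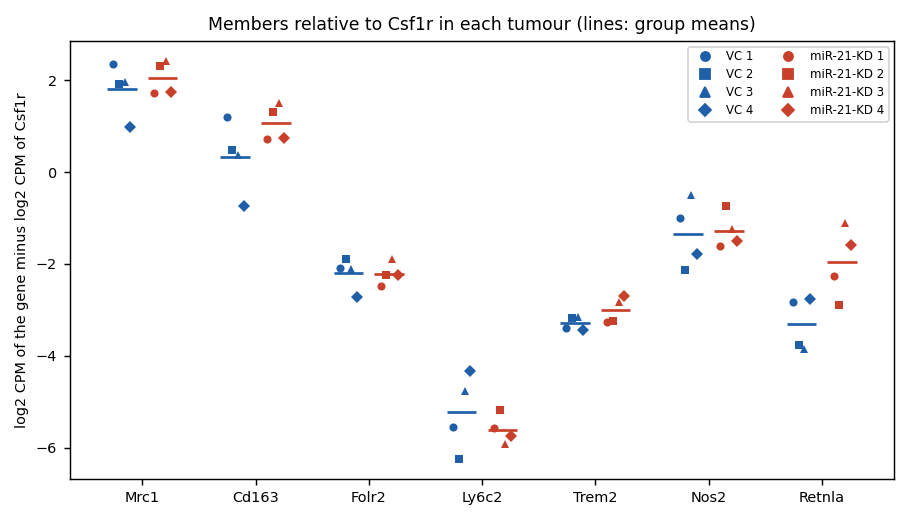
Log2 CPM of the genes compared minus log2 CPM of Csf1r in each tumour (VC blue, miR-21-KD red, 1 shape per tumour number), with lines at the group means. Markers of both colours overlap in every gene, and Retnla has the widest gap between the means, 1.34.

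Other genes of the same pathways were followed in 7 lists. Of 74 such genes, all tested, 45 rose and 3 fell, with a median log2 fold change of 0.79. Among the 5 genes of the CSF1 and CSF2 axis, the receptor chains Csf2ra (log2 1.07, adjusted p = 0.0128) and Csf2rb (1.13, adjusted p = 0.0141) and the ligand Csf2 (1.54, adjusted p = 0.0343) rose, while the Csf1r ligands Csf1 and Il34 did not pass. Monocyte recruitment genes split, with 5 of 8 higher and 2 lower. The chemokine gene Ccl7 rose by 0.80 (adjusted p = 0.00574), whereas Ccl2 fell by 0.66 on the log2 scale (adjusted p = 0.00932) and Cx3cl1 by 1.00 (adjusted p = 0.00739). These chemokines call monocytes through the receptors CCR2 and CX3CR1.

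In the IL-4 and IL-13 axis 6 of 9 genes rose. With edgeR 0 fell (2 at an unadjusted p under 0.05) and with limma-voom 0, whereas Stat6 and Il13ra1 fell with DESeq2, with the quality weights and with the replicate block. Il13 rose by 2.04 on the log2 scale (SE 0.41, adjusted p = 0.00953) from a mean of 4.32 to 17.8 CPM, the receptor chain Il4ra by 0.91 (SE 0.16, adjusted p = 0.00694) and the decoy receptor Il13ra2 by 1.79 (SE 0.37, adjusted p = 0.0105). Of 10 further targets of IL-4, 8 rose, with a median of 1.63. The chemokine genes Ccl17 and Ccl22 rose by 3.16 (adjusted p = 0.00558) and 1.85 (adjusted p = 0.00571), and Fn1, fibronectin, by 1.75 (adjusted p = 0.00586). Fn1 and Cdh1 of this list are also made by fibroblasts and epithelial cells. Of 14 classical activation genes 4 rose and 10 did not pass, with a median of 0.57. Those with the smallest adjusted p were Tnf (log2 1.20, adjusted p = 0.0147), Cd80 (0.97, adjusted p = 0.0194) and Ifngr1 (0.51, adjusted p = 0.0306).

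Macrophage transcription factors rose in 9 of 14 cases, among them Cebpa (log2 1.51, adjusted p = 0.00694) and Tfec (0.98, adjusted p = 0.00694). Complement and phagocytic genes rose in 10 of 14 cases and fell in 1 (Axl, a receptor for dying cells, log2 -0.70, adjusted p = 0.0175). The macrophage elastase Mmp12 rose by 2.55 (SE 0.49, adjusted p = 0.00845), the lysosomal protease gene Lgmn by 0.77 (adjusted p = 0.00854) and the antibody receptor gene Fcgr3 by 0.85 (adjusted p = 0.0105).

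Of 4 general leukocyte markers, which macrophages carry too, 3 rose, among them Ptprc, which encodes CD45, by 0.99 on the log2 scale (adjusted p = 0.0180), and the summed level ranged from 745 to 1525 CPM in VC tumours and from 1493 to 2215 CPM in miR-21-KD tumours. T cell markers rose in 5 of 8 cases, with Cd4 at 1.56 (adjusted p = 0.0128) and sums of 51.9 to 203 CPM against 176 to 383 CPM. Of the 4 B cell markers tested 0 passed with edgeR (0 at an unadjusted p under 0.05), DESeq2 or limma-voom, with sums of 1.76 to 145 CPM and 8.68 to 63.7 CPM, and Pax5 was at 0 in VC tumours 2 and 3. No other marker list had a gene at 0 in any tumour. The share of the macrophage differences that moved with total leukocytes was not tested.

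**Figure D4:**
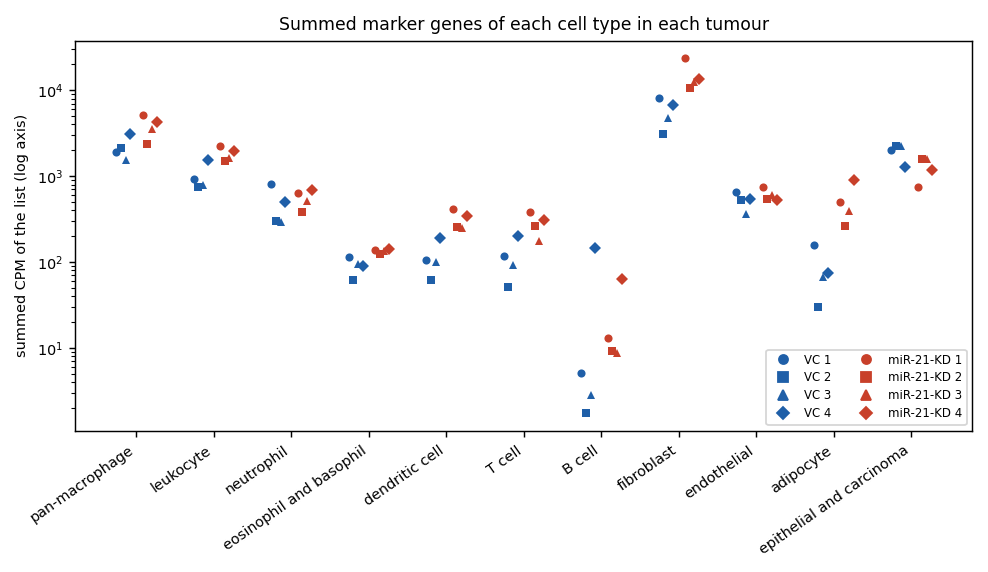
Summed CPM (log axis) of the pan-macrophage genes and of the marker genes of 10 other cell types in each tumour, VC in blue and miR-21-KD in red, with 1 shape per tumour number. Adipocyte, fibroblast, dendritic cell and eosinophil and basophil sums of the groups do not overlap, and the B cell sum of VC tumour 4 (145 CPM) stands far above the other VC tumours.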

How the data were processed

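RNA from 4 VC and 4 miR-21-KD tumours was sequenced, and the authors deposited a table of raw counts per gene by Entrez identifier, without normalization. The submitters' processing notes name Subread, featureCounts, edgeR, limma and mm10, with no versions. Whether the counting used strand is not given in the sources used here, so overlapping genes cannot be told apart. Symbols came from the GRCm38.p6 RefSeq annotation (25275 of 27179 identifiers) and exon lengths from GENCODE M21.

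Genes were filtered with filterByExpr (minimum count 10, minimum total 15), scaled by TMM and tested with edgeR 4.0.16 (robust quasi-likelihood, R 4.3.3) with Benjamini-Hochberg adjustment at 0.05 and no minimum fold. CPM used the reads of tested genes, and a prior count of 2 was added for the ratios to Csf1r, which were tested with SciPy 1.17.1. P-values measure the spread between these tumours. Floors cover counting error only.

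The scripts were tested on simulated data. The named genes were all 39 members, with values per tumour for up to 4 called members of each role by size of change and for the most abundant member that did not pass, and up to 3 genes of each other list by adjusted p. Ly6c2, Aif1 and the other genes with values outside this rule were chosen after their values were seen. The results of some genes are not reported here. The members and lists were chosen with earlier results of these data known.

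Alternatives were DESeq2 1.42.0, limma-voom of limma 3.58.1 with and without quality weights, other scalings and filters, a test above 1.5-fold, leaving out each tumour and a replicate block. After removal of group means, tumours with the same number correlated at 0.272, 0.421, 0.175 and 0.376. The mean of -0.105 for other combinations is no separate comparison, since removing group means ties it to the same-number mean. The numbers were taken to pair the tumours on these 4 correlations alone, and the labels name no pairing. The reported values use no block.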

Additional observations from a re-analysis of the deposited data

Results flagged for a closer look

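Aif1 in VC tumour 4 (100.3 CPM) stood far from the other VC tumours, which read 44.4 to 47.3 CPM. Its gap was 0.948 of the group's range, over Dixon's critical value for 4 samples. Gpnmb in VC tumour 1 (62.0 CPM) was below the other VC tumours, at 86.1 to 89.7 CPM, with a gap of 0.870 of the range. These were the 2 flags among 88 groups of 4 examined, and chance flags about 1 in 20 groups.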

How the results depend on the processing

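Of 612 values of single members under the alternatives, 554 kept their direction and their side of the threshold, 34 lost and 14 gained significance, and 10 changed sign, all 10 in genes that did not pass. The number of members higher was 25 to 28 under DESeq2, limma-voom, the quality weights, other scalings, other filters and the replicate block, while 13.1% (no filter) to 28.4% (quality weights) of all genes with a symbol were higher, against 19.8% as reported. It was 21 to 30 when single tumours were left out, with 10.0% (without VC tumour 3) to 22.7% (without miR-21-KD tumour 2) of all genes higher. It was 7 in a test for changes above 1.5-fold (among them Ms4a7, Selenop, Chil3, Clec10a, Mgl2 and Trem2), which asks for a larger change and called 2.33% of all genes higher. Gpnmb was the 1 lower member in every setting run. The replicate block gave 26 members higher, with Timd4 added at 1.14 (adjusted p = 0.0325), and changed no other call of a member. Timd4 also passed with DESeq2, limma-voom, the quality weights, upper-quartile scaling, at least 10 counts in every tumour, and without VC tumour 1 or 4. With quality weights Lyz2 and Mertk passed as well.

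Msr1 turned to 0.011 under the filter of 10 counts in all tumours, 0.087 with quality weights and 0.0019 with upper-quartile scaling, and ranged from -0.18 to 0.19 when single tumours were left out. Spp1 turned to 0.072 with quality weights and ranged from -0.32 to 0.071 without single tumours. The ranges were -0.0024 to 0.20 for Clec4n and -0.39 to 0.026 for F13a1. Folr2 relative to Cd68 was 0.13 and relative to Adgre1 0.10, instead of -0.01 relative to Csf1r. The cause of these turns was not tested. None of the 8 ratios passed under the alternatives that kept all 8 tumours, although exact sign flips within pairs cannot go below p = 0.125.

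Of the pathway genes, 45 were higher, 9 in the test above 1.5-fold and 29 without VC tumour 3, settings in which the share of all genes called higher also fell, to 2.33% and 10.0%. Those lower numbered 3, against 6 with DESeq2, 5 with the replicate block, with quality weights or without miR-21-KD tumour 2, and 0 above 1.5-fold. Depth limited Vsig4, Cd5l and Marco, with at most 48 counts.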
